A study of Homo sapiens with 13 samples.

Results

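Glycolysis splits glucose into pyruvate in the cytosol, the pentose phosphate pathway diverts glucose 6-phosphate to NADPH and ribose, and the pyruvate dehydrogenase complex hands pyruvate to the tricarboxylic acid (TCA) cycle of the mitochondrion. Many tumor cells take up large amounts of glucose and release lactate even when oxygen is present, so the lactate and pyruvate steps are often studied in cancer. The enzymes described here were taken from a list of 42 symbols, which stand for 41 genes because PKM and PKM2 name the same pyruvate kinase gene. Of these, 17 belong to glycolysis and lactate formation, 6 to the pentose phosphate pathway, 14 to the TCA cycle and 4 to the pyruvate dehydrogenase complex. The deposited data list 24875 genes for Silvestrol and 13121 genes for INK128, and all 41 enzymes are in both lists.

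All cells were MDA-MB-231, an established human triple-negative breast cancer line, and the study asked which mRNAs depend for their translation on eIF4A, the RNA helicase that Silvestrol inhibits. Ribosome footprints (RFs) were sequenced at 2 h of DMSO or 25 nM Silvestrol in cultures of passage 3 and passage 4, at 1 h of the same treatments in 1 library each, and in 1 library of untreated cells. Messenger RNA was sequenced at 2 h in 1 library with DMSO and 1 with Silvestrol. A second experiment measured RFs and total RNA after 2 h of DMSO or 200 nM INK128, an inhibitor of the mTOR kinase, in 1 library for each treatment and assay. The control mRNA library is called untreated in one label field and DMSO in its title, and the passage 3 Silvestrol RF library at 2 h is called 1 h in one field and 2 h in its title. Titles were followed in both cases.

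Counted reads ranged from 2652423 in the passage 4 Silvestrol RF library at 2 h to 50315607 in the DMSO mRNA library. Levels are RPKM in the Silvestrol table and FPKM in the INK128 table, both per length, so that levels of different genes can be compared within a table but not between the tables. The INK128 table has no read counts, so its depth is unknown. Markers of the line were present, with 6454 and 4789 RPKM of VIM in the 2 DMSO RF libraries at 2 h, and of 6 epithelial and receptor genes known to be low in it, ESR1, PGR and CDH1 had 0 or 1 read there while ERBB2, EPCAM and GATA3 lay between 3.24 and 9.69 RPKM. Between RF RPKM values at 2 h, the median log2 change with Silvestrol over the 10507 genes that passed the filter was -0.17 at passage 3, and -0.15 at passage 4 over the 10434 of them with reads in both libraries, whereas in the edgeR model of the counts it was -0.01. Changes are therefore read against these medians. Of the 41 enzymes, 40 passed the filter, and the exception was PGAM1, phosphoglycerate mutase, with 0 reads in all 7 RF libraries of the Silvestrol experiment against 246 and 205 reads in the mRNA libraries with DMSO and Silvestrol. Its mRNA was counted over 4.75% of the transcript length, and no fold is given for its RFs.

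How much of each gene was counted differed widely among the enzymes. The authors left out positions shared with other sequences, and several glycolytic genes have processed pseudogenes that are near copies of the mRNA. The counted length, which is the read count divided by RPKM and by library size, had a median of 130.7% of the annotated coding length over 9069 genes in the passage 3 DMSO RF library, and this value rather than 100% stands for a fully counted gene. For the enzymes the median was 117.5%. It was under 50% in 10 of 41 enzymes, PGAM1 included, against 4.3% of all genes. LDHA was counted over 9.73% of its coding length, GAPDH over 13.1%, TPI1 over 16.2% and PGK1 over 18.5%. The others were ALDOA at 27.1%, PKM at 28.1%, CS at 31.1%, LDHB at 32.1% and ENO1 at 39.3%. In 8 enzymes (HK2, ALDOA, TPI1, PGK1, LDHB, RPE, CS and IDH1) the counted length differed by more than 1.2 times between a Silvestrol library and its DMSO library, so that their RPKM and their counts changed by different amounts. Enzymes with either feature numbered 13. Over all genes the median ratio of counted length, Silvestrol over DMSO, was 1.07 in the passage 3 RF libraries at 2 h and 1.04 in mRNA. Ratios of single enzymes are read against these medians, and the limit of 1.2 was not adjusted for them.

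**Figure D1:**
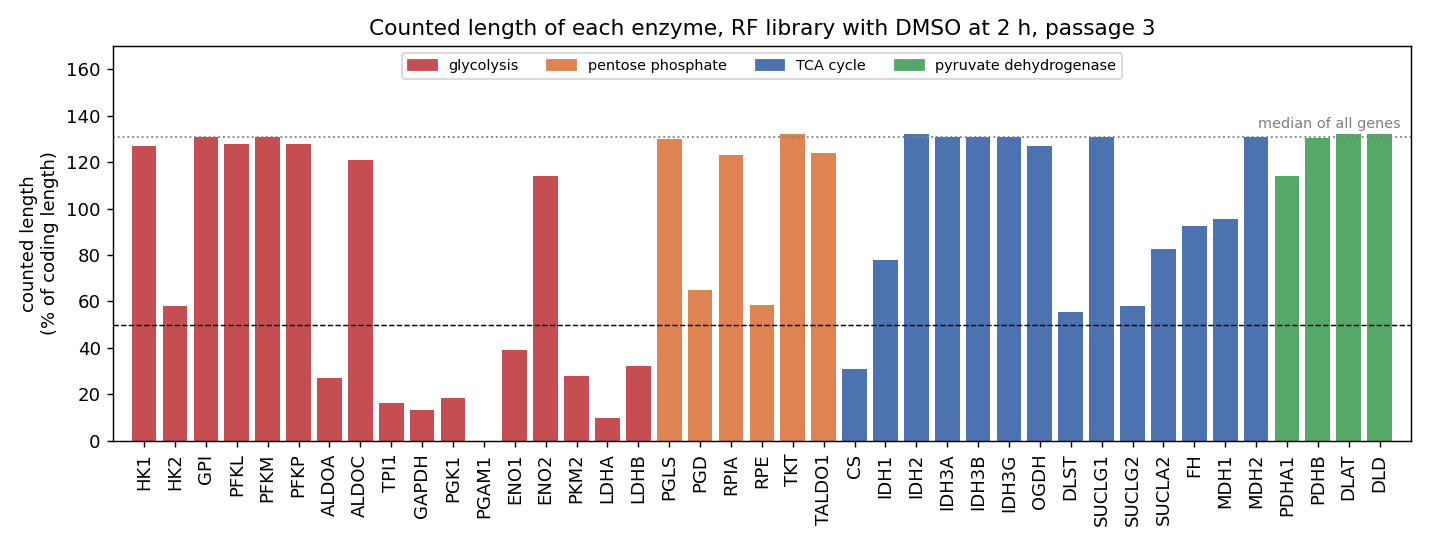
Counted length of each of the 41 enzymes as a percentage of its annotated coding length in the passage 3 DMSO RF library at 2 h. Bars are colored by pathway, the dashed line is at 50% and the dotted line is the median of all genes, 130.7%. PGAM1 has no RF reads, and LDHA, GAPDH, TPI1 and PGK1 stand lowest among the rest.

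The order of the levels differed between the tables. In the INK128 table GAPDH, the glyceraldehyde 3-phosphate dehydrogenase, had the highest RF level of the 41 enzymes with DMSO, whereas in the Silvestrol table it ranked 35. TPI1, triose phosphate isomerase, ranked 6 in the INK128 table and 31 in the Silvestrol table, and PGAM1 ranked 10 and 41. ENO1, enolase, and PKM were near the top in both tables, at ranks 2 and 4 in the INK128 table and 1 and 2 in the Silvestrol table. Ranks also differed among the enzymes of usual counted length, where PDHA1 was at ranks 32 and 14 and IDH3A at 39 and 26, while TKT was at 9 and 7 and MDH2 at 12 and 8.

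With DMSO at 2 h and passage 3, RF levels ran from 8.31 RPKM for RPE, ribulose phosphate epimerase, to 4523 RPKM for ENO1. The highest in each pathway were ENO1, PKM and ALDOA in glycolysis, TKT, TALDO1 and PGD in the pentose phosphate pathway, MDH2, MDH1 and FH in the TCA cycle, and PDHB, PDHA1 and DLD in the pyruvate dehydrogenase complex. Translational efficiency (TE), the RF RPKM divided by the mRNA RPKM, ran among enzymes outside the group of 13 from 1.01 for PFKL to 9.5 for DLD, the dihydrolipoyl dehydrogenase shared by several mitochondrial complexes. Pyruvate dehydrogenase subunits lay high on this scale, with 8.4 for PDHA1, 5.62 for DLAT and 3.44 for PDHB. Enzymes of other pathways lay in the same range, with 7.03 for IDH3A, 4.17 for FH and 3.66 for GPI. At the median, untreated cells differed little from DMSO-treated cells. The median log2 difference of their RF RPKM was 0.07 over the 40 enzymes and 0.04 over all genes. Single enzymes lay between -0.23 and 0.54, with PGK1 the highest, followed by CS and IDH1 (both 0.36). For PGK1 this difference was larger than its RF change in RPKM with Silvestrol at 2 h (log2 0.29 at passage 3 and 0.19 at passage 4).

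In the edgeR model, Silvestrol at 2 h left most enzymes with a higher share of the RFs than DMSO did, and a minority with a lower share. RPKM and edgeR changes are scaled to the library, so enzymes that rose or fell did so relative to other genes. RF amounts per cell cannot be read from them. In the edgeR quasi-likelihood test, 5 of 40 enzymes rose (GPI, PKM, DLST, SUCLG1 and MDH2) against 2.22% of all genes, and 1 fell (DLD) against 7.73% of all genes. Passage 3 and passage 4 supplied both a DMSO and a Silvestrol library, and with the passage as a block 24 enzymes rose and 7 fell, against 25.0% and 28.1% of all genes. DESeq2 called 11 higher and 1 lower, against 5.81% and 9.58%, and at an unadjusted p of 0.05 edgeR had 16 higher and 2 lower, against 12.6% and 18.7%. The median log2 change over the 40 enzymes was 0.40, and -0.01 over all genes. In libraries from bulk cultures, fewer cells and less RNA per cell cannot be told apart. The median was 0.39 in glycolysis, 0.44 in the pentose phosphate pathway, 0.51 in the TCA cycle and 0.04 in the pyruvate dehydrogenase complex. In RPKM, the Silvestrol libraries lay above both DMSO libraries in 19 of 40 enzymes and below both in 9, against 20.5% and 40.1% of all genes. Leaving out the passage 3 Silvestrol library left 0 edgeR calls among the enzymes and over all genes, with 9 enzymes higher and 1 lower at an unadjusted p of 0.05 (against 4.1% and 11.1% of all genes), and leaving out the passage 4 Silvestrol library left 0 as well, with 11 higher and 1 lower (against 6.1% and 12.1%). PKM and DLST missed the threshold without the passage 3 DMSO library, and GPI, MDH2 and DLD did without the passage 4 DMSO library. Pairs of values below are in the order passage 3, passage 4, errors of log2 changes are SE of the edgeR model with 2 libraries per group, and adjusted p-values are from the edgeR test with Benjamini-Hochberg adjustment over 10507 genes.

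**Figure D2:**
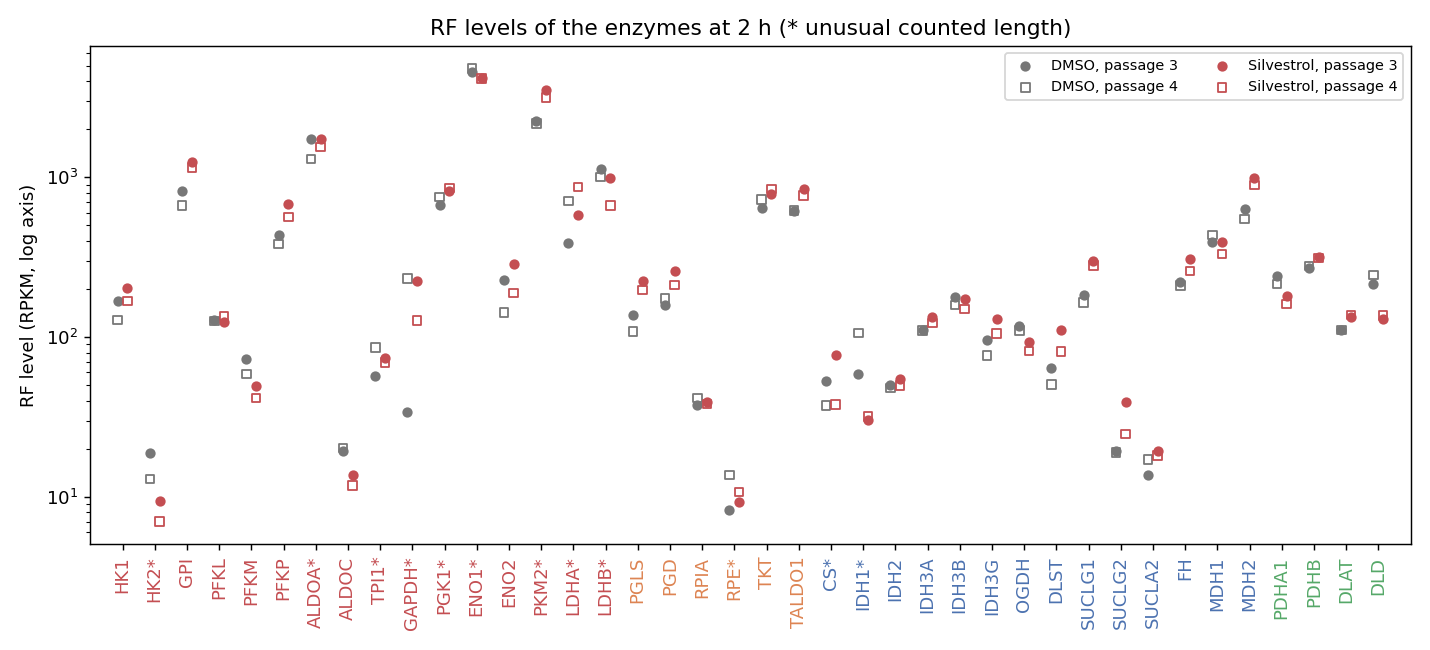
RF level in RPKM (log axis) of the 40 enzymes with RF reads in each of the 4 RF libraries at 2 h, gray for DMSO and red for Silvestrol, filled circles for passage 3 and open squares for passage 4. Names are colored by pathway (red glycolysis, orange pentose phosphate, blue TCA cycle, green pyruvate dehydrogenase), and an asterisk marks unusual counted length. Both red points lie above both gray points for GPI, PKM, SUCLG1 and MDH2, and below them for DLD and IDH1.

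**Figure D3:**
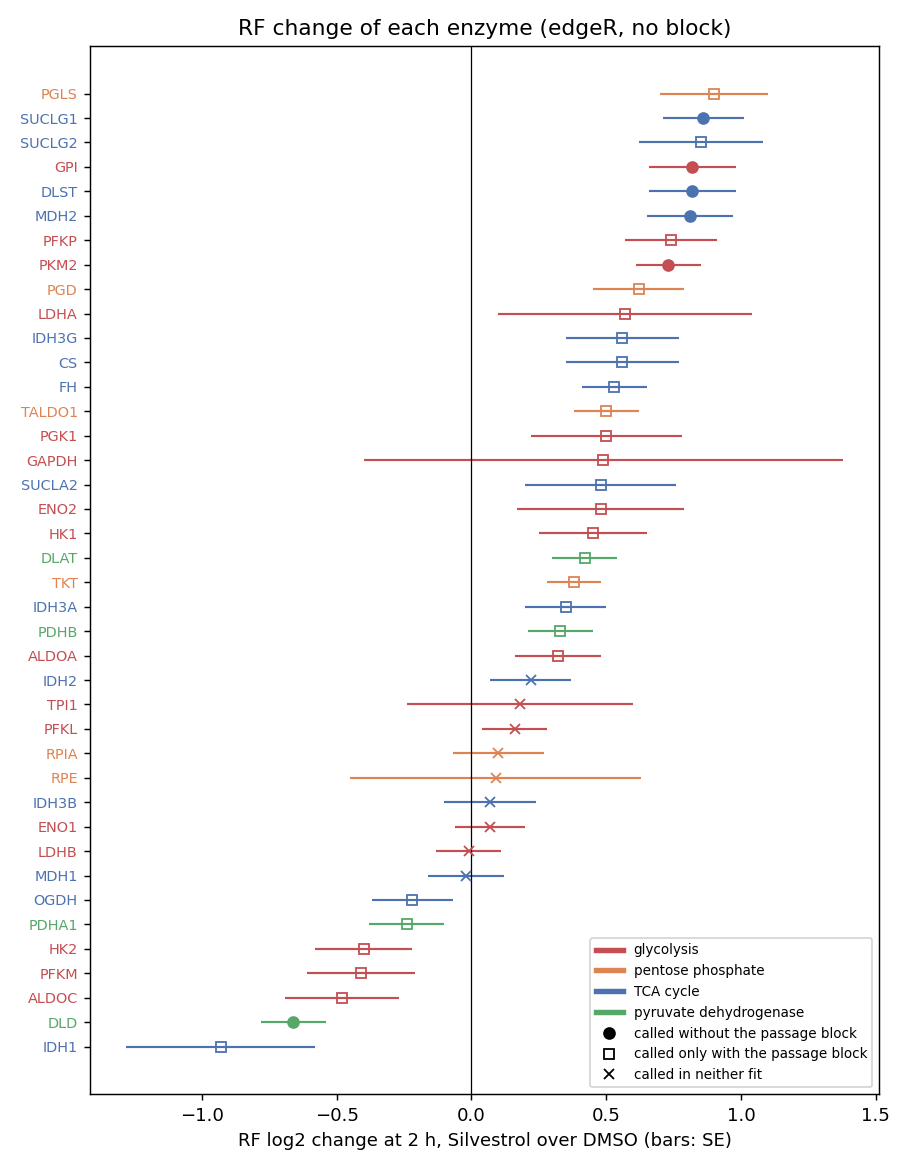
RF log2 change at 2 h (Silvestrol over DMSO) of 40 enzymes from the edgeR model without the block, points with bars of 1 SE, ordered by size and colored by pathway. Filled circles mark the 6 enzymes called without the passage block, open squares those called only with it, and crosses those called in neither; most enzymes lie right of 0, up to 0.90 for PGLS, and IDH1 lies lowest at -0.93.

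Glycolysis begins with the hexokinases, which phosphorylate glucose, and the 2 isozymes among the 41 enzymes went different ways. HK1, the widely expressed form, had RF levels of 168 and 128 RPKM with DMSO and 202 and 168 RPKM with Silvestrol (log2 change 0.45 ± 0.20, adjusted p = 0.20), and passed the test only with the block (with the block 0.46 ± 0.09, adjusted p = 1.0e-06). HK2, the form many tumors induce, was much lower, at 18.8 and 12.9 RPKM with DMSO and 9.46 and 7.03 RPKM with Silvestrol (log2 change -0.40 ± 0.18, adjusted p = 0.21; with the block -0.38 ± 0.17, adjusted p = 0.044). Both Silvestrol values of HK2 lay below both DMSO values, and both Silvestrol values of HK1 lay above both of its DMSO values. At 1 h HK1 was at 167 RPKM with DMSO and 194 RPKM with Silvestrol (untreated 181 RPKM), while HK2 was at 22.9 RPKM with DMSO and 10.9 RPKM with Silvestrol (untreated 17.6 RPKM), the lowest change in RPKM of any enzyme at that time (log2 -1.07). Its counted length was 1.51 times as long with Silvestrol at 1 h, and in CPM, the read count over the library total with no length, the change was -0.48, against -0.65 for GAPDH and -0.56 for TPI1. The 2 h values of HK2 rest on 283 and 60 reads with Silvestrol, and its counted length was 1.56 times as long with Silvestrol as with DMSO at passage 3.

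GPI, which interconverts glucose and fructose 6-phosphates and sits on chromosome 19 (hg19, 34850385 to 34893318), rose with Silvestrol. Its RF levels were 819 and 665 RPKM with DMSO and 1249.9 and 1149 RPKM with Silvestrol (log2 change 0.82 ± 0.16, adjusted p = 0.042). The groups did not overlap, and at 1 h the same order held, with 822 RPKM with DMSO and 1029 RPKM with Silvestrol (untreated 836 RPKM). The 3 phosphofructokinase isozymes, which catalyze the committed step, followed with a split of their own. PFKP, the platelet form and the most abundant of them, had 435 and 382 RPKM with DMSO and 682 and 562 RPKM with Silvestrol (log2 change 0.74 ± 0.17, adjusted p = 0.054; with the block 0.73 ± 0.08, adjusted p = 1.3e-18). PFKM, the muscle form, had 73.3 and 58.8 RPKM with DMSO and 49.4 and 41.6 RPKM with Silvestrol (log2 change -0.41 ± 0.20, adjusted p = 0.23; with the block -0.41 ± 0.10, adjusted p = 0.00034). PFKL, the liver form, had 128 and 126 RPKM with DMSO and 125 and 135 RPKM with Silvestrol, with a log2 change of 0.16 ± 0.12 that passed neither test. So with the block PFKP rose and PFKM fell, and the 4 values of PFKL overlapped. At 1 h the levels were 446 RPKM with DMSO and 548 RPKM with Silvestrol (untreated 465 RPKM) for PFKP. For PFKM they were 75.4 RPKM with DMSO and 55.8 RPKM with Silvestrol (untreated 76.3 RPKM). For PFKL they were 129 RPKM with DMSO and 114 RPKM with Silvestrol (untreated 131 RPKM).

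Aldolase, which cleaves fructose 1,6-bisphosphate, was represented by an abundant and a rare isozyme. ALDOA had RF levels of 1727 and 1299.7 RPKM with DMSO and 1729.8 and 1547 RPKM with Silvestrol (log2 change 0.32 ± 0.16, adjusted p = 0.24; with the block 0.31 ± 0.09, adjusted p = 0.0012). ALDOC had 19.3 and 20.2 RPKM with DMSO and 13.7 and 11.8 RPKM with Silvestrol (log2 change -0.48 ± 0.21, adjusted p = 0.19; with the block -0.45 ± 0.18, adjusted p = 0.025), the last from 43 reads. ALDOC thus lay lower in both passages with Silvestrol, and ALDOA overlapped in RPKM. At 1 h ALDOA was at 1863 RPKM with DMSO and 1443 RPKM with Silvestrol (untreated 1840.1 RPKM). The rare isozyme was at 17 RPKM with DMSO and 13.8 RPKM with Silvestrol (untreated 19.5 RPKM).

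The triose enzymes had few countable positions, and their values moved with the library. TPI1 had 56.7 and 86.1 RPKM with DMSO and 73.9 and 69.5 RPKM with Silvestrol, from 35 reads in the smallest library (log2 change 0.18 ± 0.42, adjusted p = 0.81). GAPDH had 33.9 and 233 RPKM with DMSO and 223 and 127 RPKM with Silvestrol, and its read counts were 117 and 221 with DMSO and 342 and 56 with Silvestrol. Its RF RPKM was therefore higher with Silvestrol at passage 3 (log2 2.72) and lower at passage 4 (log2 -0.87), and at 1 h it was lower as well, with 88 RPKM with DMSO and 47.7 RPKM with Silvestrol (untreated 37.3 RPKM). The edgeR log2 change of GAPDH was 0.49 ± 0.89, adjusted p = 0.74. With the block GAPDH counted among the calls (with the block 1.23 ± 0.19, adjusted p = 1.9e-09) although the passages disagreed in direction. At 1 h TPI1 stood at 63.7 RPKM with DMSO and 41.2 RPKM with Silvestrol (untreated 49.4 RPKM).

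PGK1, phosphoglycerate kinase, is the first step of glycolysis to yield ATP. It had 671 and 751 RPKM with DMSO and 819 and 856 RPKM with Silvestrol (log2 change 0.50 ± 0.28, adjusted p = 0.28; with the block 0.48 ± 0.10, adjusted p = 5.6e-06), and at 1 h 840.0 RPKM with DMSO and 1106 RPKM with Silvestrol (untreated 973 RPKM). ENO1, the general enolase and the enzyme with the highest RF level in the Silvestrol table, had 4523 and 4786 RPKM with DMSO and 4195 and 4144 RPKM with Silvestrol (log2 change 0.07 ± 0.13, adjusted p = 0.75), which is slightly lower in RPKM and level in the count model. ENO2, the neuronal form, had 228 and 142 RPKM with DMSO and 285 and 188 RPKM with Silvestrol (log2 change 0.48 ± 0.31, adjusted p = 0.35; with the block 0.49 ± 0.09, adjusted p = 1.6e-06). ENO2 differed more between passages with DMSO than between treatments at passage 3. At 1 h ENO1 was at 4753 RPKM with DMSO and 4382 RPKM with Silvestrol (untreated 4772 RPKM). The corresponding values of ENO2 were 234 RPKM with DMSO and 257 RPKM with Silvestrol (untreated 244 RPKM).

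PKM (listed as PKM2; chromosome 15, hg19, 72491370 to 72524160), which makes pyruvate, rose at 2 h. Its RF levels were 2260.0 and 2165 RPKM with DMSO and 3502 and 3149 RPKM with Silvestrol (log2 change 0.73 ± 0.12, adjusted p = 0.030). Both Silvestrol libraries exceeded both DMSO libraries, whereas at 1 h the values were close, 2455 RPKM with DMSO and 2532 RPKM with Silvestrol (untreated 2611 RPKM). LDHA, the lactate dehydrogenase subunit that favors lactate formation, had 385 and 712 RPKM with DMSO and 582 and 869 RPKM with Silvestrol (log2 change 0.57 ± 0.47, adjusted p = 0.46; with the block 0.63 ± 0.13, adjusted p = 4.5e-06). LDHB, the partner subunit, had 1118 and 1000.3 RPKM with DMSO and 996 and 667 RPKM with Silvestrol (log2 change -0.01 ± 0.12, adjusted p = 0.96). Passage 3 and passage 4 differed more for LDHA than the treatments did, and LDHB passed neither test. At 1 h LDHA was at 296 RPKM with DMSO and 498 RPKM with Silvestrol (untreated 329 RPKM), the only enzyme higher in RPKM by 1.5-fold or more at that time. LDHB was nearly level there, with 1058 RPKM with DMSO and 1062 RPKM with Silvestrol (untreated 1087 RPKM).

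In the count model all 6 pentose phosphate enzymes lay above the median of all genes. PGLS, the lactonase that follows the first oxidation, had 137 and 108 RPKM with DMSO and 223 and 197 RPKM with Silvestrol (log2 change 0.90 ± 0.20, adjusted p = 0.052; with the block 0.90 ± 0.10, adjusted p = 2.6e-16). This was the highest log2 change of the 40 without the block, while with the block that of GAPDH was higher. Without the passage 4 DMSO library PGLS was at 0.71 and no longer the highest. PGD, which makes the second NADPH of the pathway, had 159 and 174 RPKM with DMSO and 259 and 211 RPKM with Silvestrol (log2 change 0.62 ± 0.17, adjusted p = 0.081; with the block 0.64 ± 0.10, adjusted p = 1.2e-09). Neither overlapped between treatments, and without the block both missed the threshold. TKT, transketolase, had 646 and 725 RPKM with DMSO and 788 and 843 RPKM with Silvestrol (log2 change 0.38 ± 0.10, adjusted p = 0.076; with the block 0.38 ± 0.08, adjusted p = 6.2e-06). TALDO1, transaldolase, had 617 and 621 RPKM with DMSO and 840.4 and 771 RPKM with Silvestrol (log2 change 0.50 ± 0.12, adjusted p = 0.062; with the block 0.50 ± 0.08, adjusted p = 1.8e-08). In all 4 of these enzymes the Silvestrol libraries lay above the DMSO libraries. RPE had 8.31 and 13.7 RPKM with DMSO and 9.32 and 10.7 RPKM with Silvestrol, from 19 to 87 reads (log2 change 0.09 ± 0.54, adjusted p = 0.93), and RPIA, ribose phosphate isomerase, had a log2 change of 0.10 ± 0.17; neither passed a test.

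At 1 h PGLS, PGD and TALDO1 were higher than with DMSO by less than at 2 h. PGLS was at 133 RPKM with DMSO and 149 RPKM with Silvestrol (untreated 121 RPKM). PGD was at 175 RPKM with DMSO and 187 RPKM with Silvestrol (untreated 175 RPKM). TALDO1 was at 622 RPKM with DMSO and 658 RPKM with Silvestrol (untreated 641 RPKM). TKT was lower, at 666 RPKM with DMSO and 583 RPKM with Silvestrol (untreated 650.1 RPKM), a log2 change of -0.19 that is close to the median of all genes at 1 h, -0.18. RPE was at 12.8 RPKM with DMSO and 8.32 RPKM with Silvestrol (untreated 8.12 RPKM), the lowest of the group with a log2 change of -0.62, farther from DMSO than at 2 h (0.17 and -0.36). RPIA was higher, with a log2 change of 0.20.

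Among the TCA cycle enzymes, SUCLG1, MDH2 and DLST rose. SUCLG1, the shared alpha subunit of succinyl-CoA ligase (chromosome 2, hg19, 84650652 to 84687169), had 183 and 164 RPKM with DMSO and 298 and 280.5 RPKM with Silvestrol (log2 change 0.86 ± 0.15, adjusted p = 0.033). MDH2, mitochondrial malate dehydrogenase (chromosome 7, hg19, 75677369 to 75696826), had 631 and 548 RPKM with DMSO and 995 and 897 RPKM with Silvestrol (log2 change 0.81 ± 0.16, adjusted p = 0.040). DLST, the succinyltransferase of the 2-oxoglutarate dehydrogenase complex (chromosome 14, hg19, 75348594 to 75370446), had 64.3 and 50.6 RPKM with DMSO and 111 and 81 RPKM with Silvestrol (log2 change 0.82 ± 0.16, adjusted p = 0.042). The call of DLST was lost with an offset for the counted length (0.90 ± 0.24, adjusted p = 0.071) and without the passage 3 DMSO library (adjusted p = 0.074), and that of MDH2 without the passage 4 DMSO library (adjusted p = 0.053). In each of the 3 the treatments did not overlap in RPKM, and at 1 h the direction was the same. At that time SUCLG1 was at 179.6 RPKM with DMSO and 266 RPKM with Silvestrol (untreated 202 RPKM). MDH2 was at 621 RPKM with DMSO and 771 RPKM with Silvestrol (untreated 604 RPKM). DLST was at 67.6 RPKM with DMSO and 89.4 RPKM with Silvestrol (untreated 68.2 RPKM).

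The ligase partners of SUCLG1 had fewer reads. SUCLG2, the GTP-specific beta subunit, had 19.3 and 19 RPKM with DMSO and 39 and 24.8 RPKM with Silvestrol (log2 change 0.85 ± 0.23, adjusted p = 0.078; with the block 0.89 ± 0.18, adjusted p = 3.0e-06). SUCLA2, the ATP-specific one, had 13.7 and 17.1 RPKM with DMSO and 19.3 and 18.2 RPKM with Silvestrol (log2 change 0.48 ± 0.28, adjusted p = 0.30; with the block 0.54 ± 0.18, adjusted p = 0.0058). All subunits of the ligase thus passed with the block in the same direction. At 1 h SUCLG2 was at 28.5 RPKM with DMSO and 30.9 RPKM with Silvestrol (untreated 23.1 RPKM). SUCLA2 was at 15.5 RPKM with DMSO and 18.3 RPKM with Silvestrol (untreated 15.1 RPKM).

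Malate and isocitrate dehydrogenase exist in cytosolic and mitochondrial forms. MDH1, the cytosolic malate enzyme of the shuttle, had 391 and 436 RPKM with DMSO and 393 and 330.3 RPKM with Silvestrol (log2 change -0.02 ± 0.14, adjusted p = 0.93), with no call in either fit, in contrast to MDH2; the difference between them was not tested. IDH1, the cytosolic NADP-dependent isocitrate dehydrogenase (chromosome 2, hg19, 209100953 to 209130798), had 58.7 and 106 RPKM with DMSO and 30.4 and 31.8 RPKM with Silvestrol (log2 change -0.93 ± 0.35, adjusted p = 0.15; with the block -0.79 ± 0.14, adjusted p = 3.9e-08), the lowest log2 change of the 40. Without the passage 3 DMSO library IDH1 fell (-1.35 ± 0.21, adjusted p = 0.019), and without the passage 4 DMSO library its log2 change was -0.37 and no longer the lowest. IDH2, its mitochondrial counterpart, had 49.9 and 48 RPKM with DMSO and 54.3 and 49.9 RPKM with Silvestrol (log2 change 0.22 ± 0.15, adjusted p = 0.38). Both IDH1 values with Silvestrol lay below both DMSO values, and its counted length was 1.34 times as long with Silvestrol at passage 3. IDH1 also had the lower level at 1 h, 73.1 RPKM with DMSO and 36.8 RPKM with Silvestrol (untreated 75.4 RPKM). The difference between IDH1 and IDH2 was not tested. For IDH2 the 1 h values were 48.4 RPKM with DMSO and 47.7 RPKM with Silvestrol (untreated 49 RPKM). MDH1 was at 409 RPKM with DMSO and 425 RPKM with Silvestrol (untreated 458 RPKM).

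The NAD-dependent isocitrate dehydrogenase is a separate enzyme of 3 kinds of subunit, and none of them passed the test without the block. IDH3A, the catalytic subunit, had 110.1 and 110.0 RPKM with DMSO and 134 and 122 RPKM with Silvestrol (log2 change 0.35 ± 0.15, adjusted p = 0.18; with the block 0.35 ± 0.10, adjusted p = 0.0023). IDH3G had 96.5 and 76.5 RPKM with DMSO and 129 and 105 RPKM with Silvestrol (log2 change 0.56 ± 0.21, adjusted p = 0.15; with the block 0.56 ± 0.11, adjusted p = 8.8e-07). IDH3B stood at a log2 change of 0.07 ± 0.17 and passed neither test. At 1 h the IDH3A values were 109 RPKM with DMSO and 127 RPKM with Silvestrol (untreated 121 RPKM). For IDH3G they were 96.2 RPKM with DMSO and 97.2 RPKM with Silvestrol (untreated 90.9 RPKM).

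CS, citrate synthase, the entry step of the cycle, had 52.7 and 37.2 RPKM with DMSO and 77.4 and 37.9 RPKM with Silvestrol (log2 change 0.56 ± 0.21, adjusted p = 0.15; with the block 0.60 ± 0.16, adjusted p = 0.00042), with nearly equal levels at passage 4 from 200 and 104 reads. FH, fumarate hydratase, had 222 and 209.9 RPKM with DMSO and 308 and 259 RPKM with Silvestrol (log2 change 0.53 ± 0.12, adjusted p = 0.055; with the block 0.53 ± 0.09, adjusted p = 5.2e-08). OGDH, the 2-oxoglutarate dehydrogenase that works with DLST and DLD, had 118 and 109.9 RPKM with DMSO and 93.6 and 82 RPKM with Silvestrol (log2 change -0.22 ± 0.15, adjusted p = 0.35; with the block -0.23 ± 0.09, adjusted p = 0.028). OGDH was lower in both passages while its complex partner DLST was higher. At 1 h CS was at 70.6 RPKM with DMSO and 85.4 RPKM with Silvestrol (untreated 67.6 RPKM). FH was at 224 RPKM with DMSO and 279 RPKM with Silvestrol (untreated 258 RPKM). OGDH was at 124 RPKM with DMSO and 95.3 RPKM with Silvestrol (untreated 125 RPKM), again below its control.

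Subunits of the pyruvate dehydrogenase complex did not move together. DLD, the E3 subunit (chromosome 7, hg19, 107531607 to 107572175), fell, with 215 and 244 RPKM with DMSO and 129 and 136 RPKM with Silvestrol (log2 change -0.66 ± 0.12, adjusted p = 0.038). PDHA1, the E1 alpha subunit, had 241 and 215 RPKM with DMSO and 181 and 161 RPKM with Silvestrol (log2 change -0.24 ± 0.14, adjusted p = 0.30; with the block -0.24 ± 0.10, adjusted p = 0.026). Its E1 beta partner PDHB had 269 and 278 RPKM with DMSO and 315 and 312 RPKM with Silvestrol (log2 change 0.33 ± 0.12, adjusted p = 0.14; with the block 0.33 ± 0.09, adjusted p = 0.0010). DLAT, the E2 core, had 111 and 111 RPKM with DMSO and 134 and 137 RPKM with Silvestrol (log2 change 0.42 ± 0.12, adjusted p = 0.087; with the block 0.42 ± 0.09, adjusted p = 3.6e-05). With the block, then, 2 subunits fell and 2 rose. At 1 h DLD was already lower, at 215 RPKM with DMSO and 147 RPKM with Silvestrol (untreated 247 RPKM). PDHA1 was at 241 RPKM with DMSO and 205 RPKM with Silvestrol (untreated 244 RPKM). PDHB was at 253 RPKM with DMSO and 270.0 RPKM with Silvestrol (untreated 275 RPKM). DLAT was at 107 RPKM with DMSO and 117 RPKM with Silvestrol (untreated 114 RPKM).

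At 1 h, in 1 library per treatment and therefore with no test, the median log2 change over the 40 enzymes was 0.07, against -0.18 over all genes, and 28 of the 40 lay above that median. HK2, TPI1, GAPDH, RPE and IDH1 were lower by 1.5-fold or more (12.5% of the enzymes against 21.9% of all genes), and LDHA was higher (2.50% against 1.63%). All 5 of the lower ones belong to the 13 enzymes of unusual counted length. In CPM GAPDH alone was lower by that fold (against 15.4% of all genes), and LDHA and SUCLG1 were higher (against 3.4%).

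The mRNA of the same enzymes, again with 1 library per treatment, ran the other way. The median log2 change of mRNA RPKM over the 40 enzymes was -0.50, against 0.04 over all genes. In glycolysis the median was -0.71 and 15 of 16 enzymes lay below the median of all genes, in the pentose phosphate pathway it was -0.42 and in the TCA cycle -0.29. All 4 pyruvate dehydrogenase subunits lay above it, with a median of 0.30. An mRNA level lower by 1.5-fold or more was seen in 15 enzymes (37.5%, against 11.8% of all genes), of which 10 were glycolytic. A higher level by that fold was seen in DLD alone (2.50%, against 18.3% of all genes). In CPM 10 enzymes were lower by that fold (against 8.2% of all genes), 8 of them glycolytic, and 3 were higher, RPE, SUCLA2 and DLD (against 21.1%). In the 28 enzymes without unusual counted length the median was -0.39, and the 7 glycolytic enzymes among them all lay below the median of all genes, from -1.11 to -0.31.

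Named by step, the hexokinase mRNAs were at 80.5 RPKM with DMSO and 59.7 RPKM with Silvestrol for HK1. For HK2 they were 6.37 RPKM with DMSO and 4.43 RPKM with Silvestrol. GPI mRNA was at 224 RPKM with DMSO and 152 RPKM with Silvestrol. The phosphofructokinases were all lower with Silvestrol. PFKP was at 274 RPKM with DMSO and 179 RPKM with Silvestrol. PFKM was at 29.1 RPKM with DMSO and 23.6 RPKM with Silvestrol. PFKL was at 126 RPKM with DMSO and 86.1 RPKM with Silvestrol. The aldolases were lower too, and more so the rare one. ALDOA was at 764 RPKM with DMSO and 487 RPKM with Silvestrol. ALDOC was at 13.4 RPKM with DMSO and 6.2 RPKM with Silvestrol.

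The later steps of glycolysis held the lowest mRNA changes. GAPDH was at 1439 RPKM with DMSO and 467 RPKM with Silvestrol, a log2 change of -1.62 from 17958 and 3172 reads. PKM was at 1844 RPKM with DMSO and 801 RPKM with Silvestrol. PGK1 was at 381 RPKM with DMSO and 169 RPKM with Silvestrol. These 3 lay lowest of the 40 enzymes in RPKM, and in CPM ALDOC (-1.03) lay as low as PKM and PGK1 (both -1.02). TPI1 was at 135 RPKM with DMSO and 68.4 RPKM with Silvestrol. ENO1 was at 3357 RPKM with DMSO and 1750.4 RPKM with Silvestrol. ENO2 was at 76.6 RPKM with DMSO and 45.1 RPKM with Silvestrol. LDHA and LDHB differed in sign. LDHA was at 224 RPKM with DMSO and 127 RPKM with Silvestrol. LDHB was at 250.1 RPKM with DMSO and 310.4 RPKM with Silvestrol, the exception among the 16 glycolytic enzymes whose mRNA was set against the median of all genes. PGAM1, with its short counted stretch, was at 57.1 RPKM with DMSO and 81.9 RPKM with Silvestrol.

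In the pentose phosphate pathway the oxidative enzymes and transketolase were lower. PGLS was at 109.8 RPKM with DMSO and 70.7 RPKM with Silvestrol. PGD was at 116 RPKM with DMSO and 67.1 RPKM with Silvestrol. TKT was at 439 RPKM with DMSO and 307 RPKM with Silvestrol. TALDO1 was less affected, with 343 RPKM with DMSO and 275 RPKM with Silvestrol. RPE, at 4.06 RPKM with DMSO and 6 RPKM with Silvestrol, and RPIA (log2 0.32) had higher mRNA levels.

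Of the TCA cycle mRNAs, CS was the lowest in change of RPKM, at 21.6 RPKM with DMSO and 12.9 RPKM with Silvestrol. Its mRNA was counted over a length 1.41 times as long with Silvestrol as with DMSO, and in CPM its log2 change was -0.24, against -0.59 for IDH2 and -0.52 for OGDH. IDH2 was at 35.5 RPKM with DMSO and 22.6 RPKM with Silvestrol. OGDH was at 75.3 RPKM with DMSO and 49.9 RPKM with Silvestrol. These 3 were the ones past 1.5-fold in RPKM in the cycle, while in CPM IDH2 was the one lower by that fold and SUCLA2 (0.62) was higher by it. IDH3G was at 48.1 RPKM with DMSO and 32.7 RPKM with Silvestrol. MDH2 was at 277 RPKM with DMSO and 199 RPKM with Silvestrol. SUCLG1 was at 75.7 RPKM with DMSO and 59.2 RPKM with Silvestrol. A middle group changed little. DLST was at 42.2 RPKM with DMSO and 36 RPKM with Silvestrol. SUCLG2 was at 7.89 RPKM with DMSO and 7.59 RPKM with Silvestrol. FH was at 53.1 RPKM with DMSO and 52.1 RPKM with Silvestrol. IDH1 belonged with these, at 22 RPKM with DMSO and 21.6 RPKM with Silvestrol, so that its lower RF level came with a nearly equal mRNA level. IDH3B was lower, with a log2 change of -0.42. The other 3 lay higher with Silvestrol. MDH1 was at 125 RPKM with DMSO and 145 RPKM with Silvestrol. IDH3A was at 15.7 RPKM with DMSO and 18.4 RPKM with Silvestrol. SUCLA2 was at 5.2 RPKM with DMSO and 7.43 RPKM with Silvestrol, from 544 and 411 reads.

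The pyruvate dehydrogenase mRNAs were all higher. DLD was at 22.6 RPKM with DMSO and 37.1 RPKM with Silvestrol, the highest log2 change of the 40 (0.72). DLAT was at 19.7 RPKM with DMSO and 24.9 RPKM with Silvestrol. PDHA1 was at 28.7 RPKM with DMSO and 34.2 RPKM with Silvestrol. PDHB was at 78.3 RPKM with DMSO and 90.5 RPKM with Silvestrol. DLD therefore had both the highest mRNA change and one of the lowest RF changes.

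**Figure D4:**
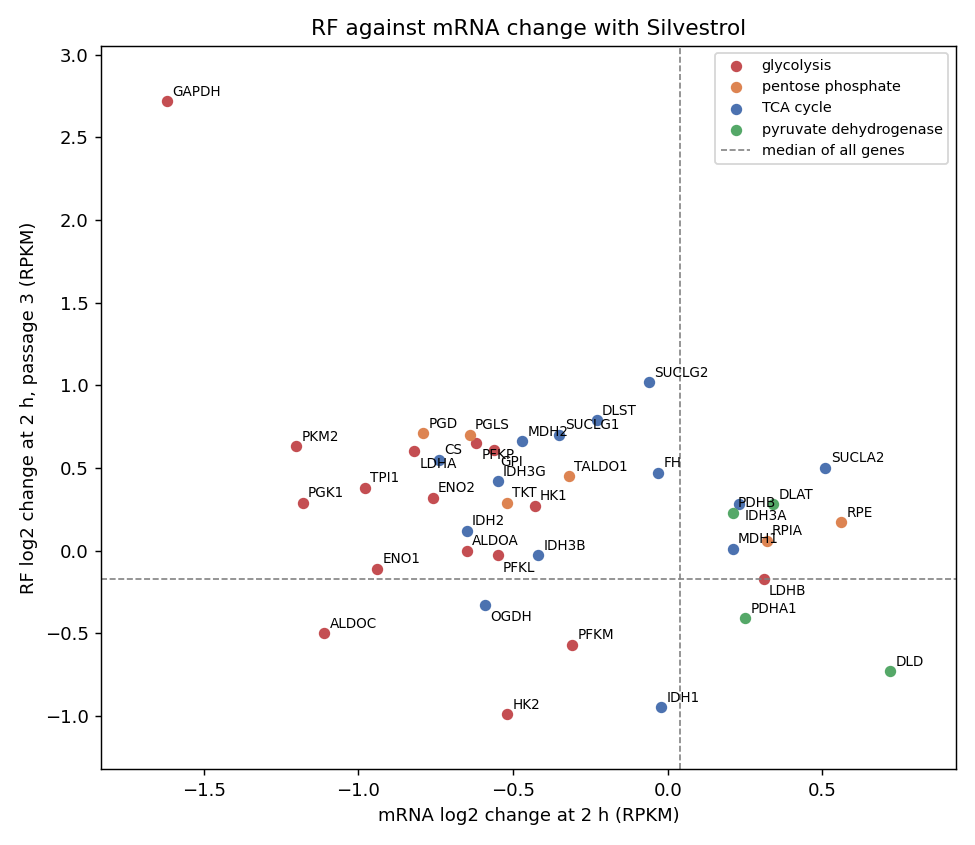
RF log2 change at passage 3 (vertical) against mRNA log2 change (horizontal), both at 2 h from RPKM, for 40 enzymes colored by pathway. Dashed lines are the medians of all genes, 0.04 for mRNA and -0.17 for RF. Glycolytic enzymes lie mostly left of the vertical line and at or above the horizontal one, GAPDH stands alone at the top left, and DLD at the lower right.

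TE, which combines the 2 measurements, was accordingly higher. The median log2 change in TE (∆TE) over the 40 enzymes was 0.73 at passage 3, against -0.28 over all genes, and 34 of the 40 lay above that median. It was 0.96 in glycolysis, 0.78 in the pentose phosphate pathway, 0.64 in the TCA cycle and -0.36 in the pyruvate dehydrogenase complex. In the 28 enzymes without unusual counted length the median was 0.65, and in the 7 glycolytic enzymes among them 0.70. As a z-score over all genes, 10 enzymes exceeded 1.5 (25.0%, against 4.72% of all genes), and 0 lay below -1.5 (against 6.61%). They were GAPDH (4.73), PKM (2.18), PGD (1.84), PGK1 (1.81), LDHA (1.76), TPI1 (1.71), PGLS (1.67), CS (1.63), PFKP (1.61) and GPI (1.51). Of these, GAPDH, PKM, PGK1, LDHA, TPI1 and CS are among the enzymes whose RFs were counted over less than 50% of the coding length. GPI, at 1.51, was just inside the threshold and MDH2, at 1.47, just outside it. When the RFs of passage 4 were set against the same mRNA libraries, 7 enzymes exceeded 1.5 (17.5%, against 4.74% of all genes) and 0 lay below -1.5 (against 6.69%). GPI, PFKP, PGK1, PKM and PGLS exceeded it in both passages (12.5%, against 2.38% of all genes), and 0 lay below in both (against 4.57%). From CPM at passage 3 the z-score of CS was 1.23. With passage 4, GAPDH was at 1.10, TPI1 at 1.02 and CS at 1.12. The lowest z-score at passage 3 was that of DLD, -1.15, followed by IDH1 with -0.62. With passage 4 they were -1.32 for DLD and -1.47 for IDH1.

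In the edgeR model with an interaction of assay and treatment over 6 libraries, 0 of 40 enzymes passed (against 0.0190% of all genes lower and 0% higher). At an unadjusted p of 0.05 the same model had 18 enzymes higher and 1 lower, against 10.5% and 14.3% of all genes. With the passage as a block, in which the mRNA libraries still have no replicate, 27 enzymes were called higher and 1, DLD, lower, against 22.6% and 22.4% of all genes. DESeq2 called 10 higher and 1 lower, against 3.79% and 5.13%. The log2 changes of PKM, 1.92 ± 0.25 (adjusted p = 0.071), and of DLD, -1.25 ± 0.25 (adjusted p = 0.088), were the ones nearest to the threshold without the block in their direction. PKM passed with the block, with 1.93 ± 0.17 (adjusted p = 9.9e-06). DLD did so with -1.25 ± 0.17 (adjusted p = 0.00017).

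What the enzymes share at their 5′ ends was looked up for the MANE Select transcripts of GENCODE, since eIF4A unwinds 5′ UTRs. The median 5′ UTR length was 60 bases over the 40 enzymes that passed the filter, against 134 over 9069 genes. It was 92.5 bases in glycolysis, 25 in the pentose phosphate pathway, 45.5 in the TCA cycle and 66.5 in the pyruvate dehydrogenase complex. The shortest was that of SUCLA2, 4 bases, and the longest were those of HK2, 454 bases, and IDH1, 223 bases, both among the enzymes lower in RFs. Over the 7 enzymes that fell with the block the median was 107 bases (51 to 454), and over the 24 that rose 54.5 bases. Over the 9 not called with the block it was 53 bases, close to that of the enzymes that rose. For all genes the medians were 251.5 bases (fell), 63 bases (rose) and 126 bases (not called). Across the 40 enzymes Spearman's rho between 5′ UTR length and RF log2 change was -0.36, and across 9069 genes it was -0.59. These are descriptions across genes, which share libraries and are not replicates. ALDOA, with 181 bases, had an RF log2 change of 0.32 ± 0.16 at 2 h.

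After INK128 the enzymes stayed near their controls. With 1 library per group there is no test, and 28 of the 41 enzymes and 3145 genes had a mean of at least 1 FPKM in both RF and total RNA. The median log2 change of RF FPKM over those 28 was -0.13, against 0.01 over all genes, and 21 lay below that median. It was -0.13 in glycolysis (14 enzymes), -0.32 in the pentose phosphate pathway (4) and -0.07 in the TCA cycle (9). Past 1.5-fold, 1 enzyme was lower, GAPDH (3.57%, against 6.04% of all genes), and 0 were higher (against 7.03%). Over all 41 enzymes and with no minimum, GAPDH was again the one past that fold (2.44% lower, against 3.71% of all genes, and 0% higher, against 4.71%). Total RNA FPKM was lower with INK128 throughout the table, with a median log2 change of -1.15 over all genes, and the enzymes followed it with -1.17. Relative to that median 0 of 28 differed by 1.5-fold in total RNA, against 0.890% of all genes lower and 14.2% higher. The z-score of ∆TE was past 1.5 in 0 of 28 enzymes (against 6.93% of all genes below and 1.08% above), and with a z-score from the median and MAD GAPDH, TKT and SUCLG1 lay below -1.5 (against 16.5% of all genes). The 13 enzymes under the minimum (HK2, PFKM, ALDOC, RPIA, RPE, IDH1, IDH2, IDH3A, SUCLG2, SUCLA2, PDHA1, DLAT and DLD) are given below by their levels, with a log2 change for RPIA.

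**Figure D5:**
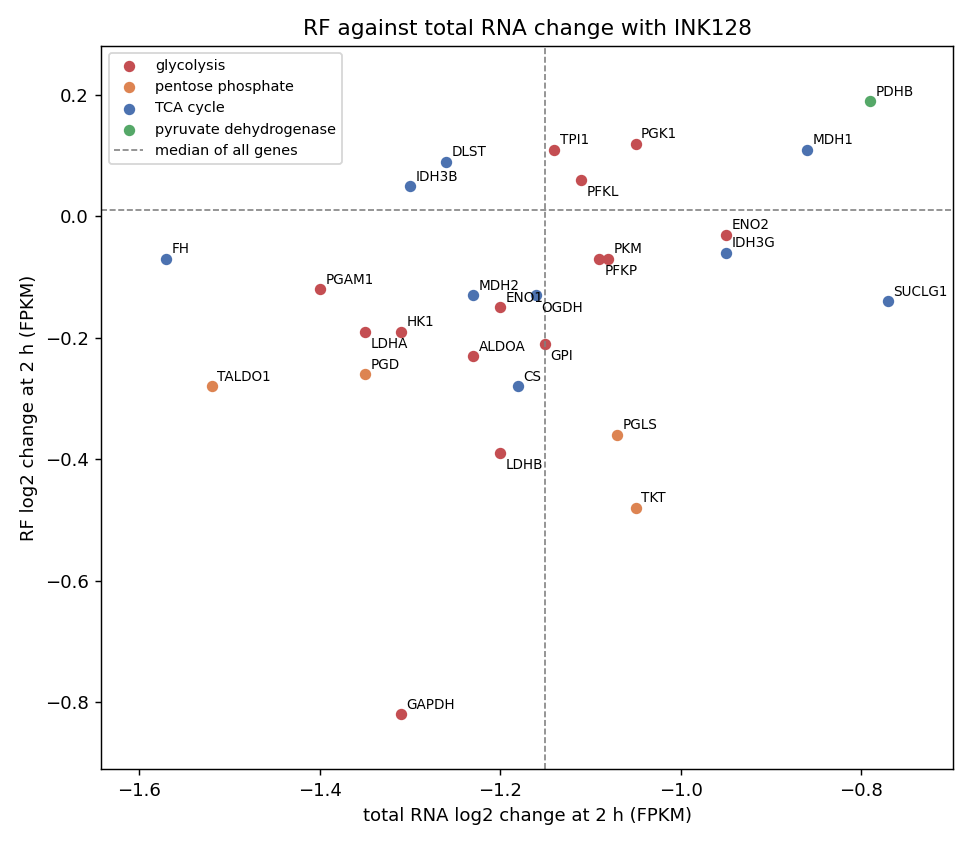
RF log2 change (vertical) against total RNA log2 change (horizontal) after 2 h of INK128, both from FPKM, for the 28 enzymes that passed the filter, colored by pathway. Dashed lines are the medians of all genes, 0.01 for RF and -1.15 for total RNA. GAPDH lies apart at an RF change of -0.82, and the pentose phosphate enzymes all lie below the horizontal line.

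In RF, GAPDH was at 4034 FPKM with DMSO and 2286 FPKM with INK128, while its total RNA was at 237 and 95.2 FPKM. TKT was next with 375 FPKM with DMSO and 268 FPKM with INK128 in RF and 19.4 and 9.4 FPKM in total RNA. LDHB had 418 FPKM with DMSO and 319 FPKM with INK128 in RF and 9.15 and 3.98 FPKM in total RNA. These were the 3 lowest RF changes of the 28. PGLS had 59.7 FPKM with DMSO and 46.4 FPKM with INK128 in RF and 3.02 and 1.44 FPKM in total RNA. TALDO1 had 225 FPKM with DMSO and 185 FPKM with INK128 in RF and 9.96 and 3.46 FPKM in total RNA. PGD had 86.6 FPKM with DMSO and 72.3 FPKM with INK128 in RF and 4.39 and 1.72 FPKM in total RNA. The 4 pentose phosphate enzymes past the filter were therefore lower, with log2 changes from -0.48 to -0.26. RPE, under the filter, had 6.71 FPKM with DMSO and 6.51 FPKM with INK128 in RF and 0.22 and 0.0757 FPKM in total RNA. RPIA, also under it, had 10 FPKM with DMSO and 10.4 FPKM with INK128 in RF, a log2 change of 0.06.

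The upper part of glycolysis varied less. HK1 had 45.5 FPKM with DMSO and 39.8 FPKM with INK128 in RF and 3.67 and 1.48 FPKM in total RNA. HK2 had 20.8 FPKM with DMSO and 19 FPKM with INK128 in RF and 1.16 and 0.506 FPKM in total RNA. GPI had 129 FPKM with DMSO and 112 FPKM with INK128 in RF and 8.3 and 3.75 FPKM in total RNA. None of them reached 1.2-fold in RF. PFKP had 189 FPKM with DMSO and 180.5 FPKM with INK128 in RF and 10 and 4.69 FPKM in total RNA. PFKM had 17.3 FPKM with DMSO and 18.3 FPKM with INK128 in RF and 0.723 and 0.349 FPKM in total RNA. PFKL had 53.3 FPKM with DMSO and 55.6 FPKM with INK128 in RF and 4.11 and 1.9 FPKM in total RNA. The phosphofructokinases, split with Silvestrol, were all close to their controls here. ALDOA had 1163 FPKM with DMSO and 991 FPKM with INK128 in RF and 64.3 and 27.3 FPKM in total RNA. ALDOC had 26.9 FPKM with DMSO and 23.9 FPKM with INK128 in RF and 0.629 and 0.153 FPKM in total RNA.

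The abundant enzymes of the lower part were measured at high levels in this table. ENO1 had 1977 FPKM with DMSO and 1785 FPKM with INK128 in RF and 122 and 53 FPKM in total RNA. LDHA had 1289 FPKM with DMSO and 1129.8 FPKM with INK128 in RF and 48.7 and 19.1 FPKM in total RNA. PKM had 1205 FPKM with DMSO and 1149 FPKM with INK128 in RF and 78.1 and 36.8 FPKM in total RNA. All 3 were slightly below their controls in RF. TPI1 had 779 FPKM with DMSO and 842 FPKM with INK128 in RF and 43.3 and 19.6 FPKM in total RNA. PGK1 had 751 FPKM with DMSO and 814 FPKM with INK128 in RF and 37.2 and 17.9 FPKM in total RNA. PGAM1 had 334 FPKM with DMSO and 308 FPKM with INK128 in RF and 22.7 and 8.58 FPKM in total RNA. PGAM1, without RF reads in the Silvestrol table, thus had a clear RF level here. ENO2 had 78.1 FPKM with DMSO and 76.3 FPKM with INK128 in RF and 2.91 and 1.51 FPKM in total RNA.

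TCA cycle enzymes lay around the median of all genes. MDH2 had 209 FPKM with DMSO and 191 FPKM with INK128 in RF and 10.8 and 4.61 FPKM in total RNA. MDH1 had 125 FPKM with DMSO and 135 FPKM with INK128 in RF and 2.04 and 1.12 FPKM in total RNA. FH had 72.8 FPKM with DMSO and 69.5 FPKM with INK128 in RF and 2.53 and 0.856 FPKM in total RNA. FH had the lowest total RNA change of the 28. CS had 47.8 FPKM with DMSO and 39.5 FPKM with INK128 in RF and 3.54 and 1.56 FPKM in total RNA. SUCLG1 had 45.3 FPKM with DMSO and 41.2 FPKM with INK128 in RF and 1.65 and 0.963 FPKM in total RNA. SUCLG2 had 47.1 FPKM with DMSO and 42.7 FPKM with INK128 in RF and 0.955 and 0.385 FPKM in total RNA. CS was the lowest of the cycle in RF among those past the filter. SUCLA2 had 16 FPKM with DMSO and 17.1 FPKM with INK128 in RF and 0.376 and 0.149 FPKM in total RNA. DLST had 36.1 FPKM with DMSO and 38.5 FPKM with INK128 in RF and 3.23 and 1.35 FPKM in total RNA. OGDH had 42.5 FPKM with DMSO and 38.9 FPKM with INK128 in RF and 3.39 and 1.52 FPKM in total RNA.

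Among isocitrate dehydrogenases, IDH1, IDH2 and IDH3A were under the minimum. IDH1 had 28.7 FPKM with DMSO and 31.2 FPKM with INK128 in RF and 0.818 and 0.411 FPKM in total RNA. IDH2 had 16.7 FPKM with DMSO and 12.4 FPKM with INK128 in RF and 1.04 and 0.36 FPKM in total RNA. IDH3A had 15.6 FPKM with DMSO and 14.7 FPKM with INK128 in RF and 0.648 and 0.254 FPKM in total RNA. IDH1, low with Silvestrol, was slightly above its control here, and IDH2 below. IDH3G had 35.1 FPKM with DMSO and 33.7 FPKM with INK128 in RF and 1.69 and 0.879 FPKM in total RNA. Of the pyruvate dehydrogenase complex, PDHB had 97.6 FPKM with DMSO and 111 FPKM with INK128 in RF and 2.32 and 1.34 FPKM in total RNA, the highest RF change of the 28. DLD had 35.3 FPKM with DMSO and 35.4 FPKM with INK128 in RF and 0.864 and 0.358 FPKM in total RNA. PDHA1 had 28.4 FPKM with DMSO and 26.9 FPKM with INK128 in RF and 0.747 and 0.316 FPKM in total RNA. DLD, which fell with Silvestrol, was equal in RF with INK128. DLAT had 19.2 FPKM with DMSO and 19 FPKM with INK128 in RF and 0.803 and 0.422 FPKM in total RNA.

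Messenger RNAs that respond to mTOR are known for a C at the cap followed by a run of pyrimidines (a TOP motif), so the annotated starts were read for it. Of the 40 enzymes with an entry in the RefSeq promoter table (GRCh38.p14), 3 began with C and at least 4 more pyrimidines (7.5%, against 4.1% of 35116 promoters). They are shown with TKT and LDHB, the next lowest to GAPDH in RF after INK128 among the 28 enzymes that passed the filter of that table, which lack the run, from 10 bases before the annotated start to 15 bases from it, 5′ to 3′ on the gene's own strand, with the pyrimidine run that begins at the start in capitals.
PGLS (chr19:17511639-17511663, + strand): ggagcgcttcCTCCTCCCCgccgcc
PGD (chr1:10399054-10399078, + strand): gcgggtctttCCCTCactcgtcctc
CS (chr12:56300316-56300340, - strand): tctactctttCCTTCagccgcctcc
TKT (chr3:53256008-53256032, - strand): cgcgcccggcCTCggcagccgcctg
LDHB (chr12:21657828-21657852, - strand): ctcctccctcCTTgcagagccggcg
RF log2 changes with INK128 were -0.36 for PGLS, -0.26 for PGD and -0.28 for CS, against -0.48 for TKT and -0.39 for LDHB. TKT and LDHB were chosen for their low values, so the order of these 5 is a description. The annotated start is 1 position per gene and need not be the start used in these cells.

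Other genes of these pathways, 64 listed by function, had fewer calls toward higher RFs than the enzymes above and equally many toward lower RFs. The difference between the lists was not tested. Of the 64 genes 44 passed the filter, the median RF log2 change was 0.22 and the median mRNA log2 change -0.36. In the edgeR test 1 of the 44 rose and 1 fell, against 2.22% and 7.73% of all genes, and with the passage as a block 15 rose and 7 fell, against 25.0% and 28.1%. PRPS2, which makes phosphoribosyl pyrophosphate from ribose phosphate, rose (log2 0.76 ± 0.12, adjusted p = 0.029). MPC2, a subunit of the mitochondrial pyruvate carrier, fell (log2 -1.10 ± 0.17, adjusted p = 0.026). Their names were taken up after seeing the values. Beyond these, the median RF log2 change was 0.21 over 9 other glycolysis and gluconeogenesis enzymes, -0.03 over 4 regulators of glycolysis, 0.33 over 6 other pentose phosphate enzymes, 0.27 over 11 other TCA and malic enzymes, 0.24 over 11 pyruvate dehydrogenase regulators and pyruvate carriers, and -0.27 over 3 glucose and lactate transporters.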

How the data were processed

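RF and mRNA libraries of MDA-MB-231 cells were analyzed from the 2 tables that the authors deposited. For the Silvestrol experiment (9 libraries) the authors deposited, per transcript, counts of reads that aligned uniquely to hg19, placed at the P-site for RFs. They also deposited RPKM values that leave out positions with non-unique reads. For the INK128 experiment (4 libraries) the authors deposited FPKM values only, and the program behind these is not given in the sources used here. The submitters' processing notes name CASAVA 1.8.1 and Bowtie2 2. Columns of the authors' own TE changes and scores were not used.

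Repeated lines were dropped (38897 lines, 25758 distinct), and of symbols with several entries (546) the one with the highest RF RPKM was kept. Genes needed a mean of at least 1 RPKM in the passage 3 RF libraries at 2 h and 0.3 RPKM in mRNA, or 1 FPKM in RF and total RNA (INK128). The RF counts and the TE interaction went through glmQLFit and glmQLFTest of edgeR 4.0.16 with TMM scaling (R 4.3.3). In simulated data with 200 genes of 10507 changed by log2 1, the RF test called 189 and 8 unchanged genes, and the TE test 100 and 4. The simulation had the same dispersion for all genes, no passage effect, and changes only in genes of higher counts. It therefore does not show how sensitive or well controlled the tests are in these data. DESeq2 1.42.0, other scalings, filters, pseudocounts, length offsets and left-out libraries were alternatives. RPKM and FPKM changes had no pseudocount. Replicates 1 and 2 are passages 3 and 4, which the labels share between treatments. The numbers were taken to pair the samples, since passage deviations in DMSO and Silvestrol correlated (r = 0.714, 10507 genes). Without the block, p-values measure the spread between these 2 cultures per treatment. With the block, they measure the spread of the treatment difference between passages. In both fits edgeR shares information on the spread across genes. A small p-value with the block therefore need not mean that the passages agreed. GAPDH had RF log2 changes in RPKM of 2.72 and -0.87 by passage, and 1.23 ± 0.19 with the block. The lone mRNA libraries are assumed to vary like the RF libraries.

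Annotation was GENCODE 44 lifted to GRCh37 (all 41 enzymes, and 86.3% of genes passing the filter, had a coding transcript), and start windows were from RefSeq. Named with values were the enzymes called in the RF fit with or without the block, the 3 highest per pathway, isozyme sets, enzymes past a z-score or fold threshold and those of unusual counted length; RPIA and IDH3B are given by their change. The enzymes and the lists were chosen with earlier results of these data known. Python 3.11.15 was used.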

Additional observations from a re-analysis of the deposited data

Results flagged for a closer look

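RF changes in RPKM had the opposite sign at 1 h and in both passages at 2 h in 4 enzymes, and this difference was not tested because 1 h has 1 library per treatment. ALDOA had an RF log2 change of -0.37 at 1 h and of 0.00 (1727 RPKM with DMSO and 1729.8 RPKM with Silvestrol) and 0.25 at 2 h. TKT had an RF log2 change of -0.19 at 1 h and of 0.29 and 0.22 at 2 h. IDH2 had -0.02 at 1 h and 0.12 and 0.06 at 2 h. LDHB had 0.01 at 1 h and -0.17 and -0.59 at 2 h. The medians of all genes were -0.18 at 1 h and -0.17 and -0.15 at 2 h. Read against them, IDH2 lay above the median at both times, TKT lay close to it at 1 h, and LDHB lay on it at passage 3, so for these 3 the opposite signs do not hold on that reading. ALDOA lay below the median at 1 h and above it in both passages at 2 h, and its counted length is among the unusual ones.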

How the results depend on the processing

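Enzymes called in RFs without the block numbered 1 lower and 5 higher. The replicate block gave 7 and 24, also with an offset for the counted length (chosen after seeing the data), the block with 1 h libraries added gave 4 and 22, DESeq2 gave 11 higher, and summing the entries of a symbol gave 8 higher. Leaving out 1 library gave 0 to 2 lower and 0 to 6 higher. Without the passage 3 DMSO library IDH1, PFKP and PGLS were called as well, and without the passage 4 DMSO library GAPDH, PGD and SUCLG2. Without the passage 3 DMSO library PKM (adjusted p = 0.055, edgeR) and DLST (0.074) lost their calls, without the passage 4 DMSO library GPI (0.051), MDH2 (0.053) and DLD (0.059) did, and without either Silvestrol library all 6 did. The offset for the counted length alone ended the call of DLST (adjusted p = 0.071), added PFKP, PGLS and TALDO1, and moved HK2 from -0.40 to -0.77 and IDH1 from -0.93 to -1.24. The median RF change, 0.40, was 0.30 to 0.38 with 1 library left out and 0.34 to 0.44 otherwise. TE calls, 0 in the main model, were 1 lower and 27 higher with the replicate block, 3 lower and 27 higher with the offset added, 1 and 10 with DESeq2, and 1 higher without the filter. With 1 library left out they were 0 to 1 lower and 0 to 8 higher, with calls only when a DMSO library was left out. Enzymes above a z-score of 1.5 numbered 10, but 6 without the filter (against 4.8% of all genes) and 2 above a threshold of 2 (against 1.4%). With INK128, 3 enzymes lay below -1.5 when the z-score used the median and MAD (against 16.5% of all genes).

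CPM in place of RPKM moved the median at 1 h from 0.07 to 0.22 and that of mRNA from -0.50 to -0.36, and mRNA was at -0.39 without the enzymes of unusual counted length. RF changes near 0 reversed. LDHB was at 0.03 with DESeq2 and with RLE size factors and 0.15 in the block with 1 h, MDH1 at 0.02, 0.02 and 0.09, and TPI1 at -0.01 in the last. With 1 library left out, LDHA ranged from 0.04 to 1.24, ENO2 from 0.12 to 0.88, PGK1 from 0.13 to 0.77, SUCLA2 from 0.19 to 0.79, ALDOA from 0.11 to 0.49, PFKM from -0.61 to -0.20, IDH1 from -1.35 (adjusted p = 0.019, without the passage 3 DMSO library) to -0.37, TPI1 from -0.24 to 0.64, ENO1 from -0.05 to 0.20, RPE from -0.47 to 0.72, IDH3B from -0.11 to 0.21, MDH1 from -0.13 to 0.09, LDHB from -0.08 to 0.06 and GAPDH from -0.37 to 2.55, the last (adjusted p = 0.0064) without the passage 4 DMSO library. HK1 ranged from 0.25 to 0.69, CS from 0.36 to 0.77, IDH3G from 0.32 to 0.78, IDH3A from 0.20 to 0.45, IDH2 from 0.08 to 0.31, RPIA from 0.04 to 0.16 and OGDH from -0.38 to -0.11. Of the 6 called enzymes 0 changed sign with 1 library left out. Low read numbers limit HK2, ALDOC, TPI1, GAPDH, RPE, SUCLA2 and SUCLG2, and mRNA, 1 h and INK128 values have no replicate.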

Other observations

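The read counts of a pair of other genes of these pathways differed between libraries far beyond the difference in depth. SDHA, the flavoprotein subunit of succinate dehydrogenase, had 1989 and 0 RF reads with DMSO at 2 h (passage 3 and passage 4) and 1284 and 1 with Silvestrol. In mRNA it had 3021 reads with DMSO and 1 with Silvestrol. ADPGK, the ADP-dependent glucokinase, ran the other way, with 0 and 217 RF reads with DMSO and 0 and 88 with Silvestrol. Its mRNA had 431 reads with DMSO and 1349 with Silvestrol. Both were named after their values were seen. SDHA had an RF level of 59.1 FPKM with DMSO in the INK128 table and a log2 change of 0.04, and ADPGK had 8.17 FPKM.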
